A study of Homo sapiens with 11 samples.

Results

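Ikaros binding was examined at 9 human genes of the death receptor pathway: the receptor genes FAS and TNFRSF10B, the adaptor gene FADD, the initiator caspase gene CASP8, its inhibitor CFLAR, and the inhibitor of apoptosis (IAP) genes XIAP, BIRC2, BIRC3 and BIRC5. These 9 were chosen by name from 20020 protein-coding genes. Every peak was taken that carried a member's name, overlapped its gene body or lay within 1000 bp of one of its transcription start sites (TSSs). The rule found 68 peaks in 5 lists, of which 46 lay within 1000 bp of a TSS of the member. The lists came from chromatin immunoprecipitation followed by sequencing (ChIP-seq) against Ikaros, a zinc finger transcription factor, in established lines of B-cell precursor acute lymphoblastic leukemia. JM1 cells were either untreated or given 20 µM CX-4945, a CK2 kinase inhibitor, for 1 day. No treatment was given to REH or 697, whereas Nalm6 was studied only with CX-4945 at that dose and time. A Bethyl antibody was used in JM1 and REH and an affinity-purified anti-Ikaros antibody in 697 and Nalm6, so line and antibody cannot be told apart across these pairs.

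In the extrinsic pathway of apoptosis, ligands on other cells bind receptors such as Fas (FAS) and DR5 (TNFRSF10B). The receptors gather the adaptor FADD, which brings in procaspase-8. Caspase-8 then cleaves executioner caspases, unless its catalytically inactive relative c-FLIP (CFLAR) takes its place. The IAP proteins act further down: XIAP inhibits caspases directly, cIAP2 (BIRC3) and cIAP1 (BIRC2) are ubiquitin ligases of TNF receptor signalling, and survivin (BIRC5) works mainly in cell division. Leukemic B-cell precursors are often poorly sensitive to ligation of these receptors.

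Each condition had 1 peak list, so no difference between conditions has a replicate check and no test was made. The lists held 19652 peaks (697) to 88692 peaks (treated JM1), and read depth was not analysed here. Because a longer list reaches more genes, the main counts of members are set beside the share of all 20020 protein-coding genes reached by the same rule. Each peak has a whole-number score from the authors, of 10 or more, used here only to rank peaks within a list. A score percentile of 90 means that 90% of the peaks of that list scored lower, ties counted at their middle rank. Percentiles and scores of different lists are given side by side and cannot show whether binding changed. As a check of the lines, 10 genes of B-cell precursors were looked up; 9 or 10 had a peak near a TSS in the JM1, REH and Nalm6 lists, but 3 did in 697, where CD79A, CD79B, VPREB1, IGLL1, RAG2 and CD22 were among those with none. Of 5 T-cell genes 1 or 2 had such a peak per list. Of 5 myeloid genes 4 had one in treated JM1, REH and Nalm6, 2 in untreated JM1 and 1 in 697. Of all protein-coding genes 49.5% (697) to 81.8% (REH) had one, so these counts cannot establish the lineage of a line. Peak lists do not measure RNA. The Nalm6 list skips 2479 of its peak numbers and holds no peak without a gene name, whereas the other 4 lists skip none and hold 511 to 3103 such peaks.

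Stretches that the peaks of several lists share at 5 members show where the binding intervals coincide. Each is the part nearest to the TSS of the Ensembl canonical transcript that lies in every peak there and in no annotated untranslated region, up to 180 bases, from the GRCh38 plus strand, which is the coding strand of all 5 genes. For FAS no such part was long enough, and the stretch common to the treated JM1 and Nalm6 peaks is shown. Capitals mark GGGAA or its reverse complement TTCCC, the core letters of sites described for Ikaros. They are FAS upstream of its TSS (chr10:88990379-88990558, in 2 lists), the coding part of FADD exon 1 (chr11:70203501-70203680, in 5 lists), CFLAR just after its first exon (chr2:201116482-201116661, in 3 lists), BIRC2 up to the base before its TSS (chr11:102347034-102347213, in 4 lists) and BIRC3 just after its first exon (chr11:102317572-102317751, in 2 lists).
FAS: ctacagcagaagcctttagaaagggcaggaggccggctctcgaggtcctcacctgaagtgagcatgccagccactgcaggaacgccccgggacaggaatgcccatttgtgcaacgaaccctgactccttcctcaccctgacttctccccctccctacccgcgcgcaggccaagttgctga
FADD: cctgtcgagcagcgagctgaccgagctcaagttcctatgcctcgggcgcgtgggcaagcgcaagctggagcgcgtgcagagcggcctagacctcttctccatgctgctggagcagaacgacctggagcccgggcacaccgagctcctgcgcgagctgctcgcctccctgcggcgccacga
CFLAR: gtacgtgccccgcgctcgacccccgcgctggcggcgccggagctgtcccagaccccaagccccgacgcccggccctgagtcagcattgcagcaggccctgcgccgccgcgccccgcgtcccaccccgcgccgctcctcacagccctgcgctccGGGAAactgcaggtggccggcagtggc
BIRC2: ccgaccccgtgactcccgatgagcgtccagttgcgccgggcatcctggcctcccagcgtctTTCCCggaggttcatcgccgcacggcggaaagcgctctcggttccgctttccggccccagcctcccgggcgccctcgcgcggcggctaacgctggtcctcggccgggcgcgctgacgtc
BIRC3: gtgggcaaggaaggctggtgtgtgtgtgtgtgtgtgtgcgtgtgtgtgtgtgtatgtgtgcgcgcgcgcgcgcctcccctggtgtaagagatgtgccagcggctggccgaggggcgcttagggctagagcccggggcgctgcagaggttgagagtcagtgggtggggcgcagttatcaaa
Of these 5 stretches, the CFLAR and BIRC2 stretches hold 1 match each and the others none. Central windows of 180 bp held a match in 42.3% (697) to 47.8% (REH) of all peaks near a protein-coding TSS. A match is a description of letters, and a stretch without one is not evidence about Ikaros.

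Most members carried a peak near a TSS in every list but that of 697. A TSS peak, meaning any part of a peak within 1000 bp of any annotated TSS, was present for 7 of 9 members in untreated JM1, where 58.8% of all protein-coding genes had one. REH had one for 9 of 9 (81.8% of all genes), treated JM1 for 9 of 9 (81.2%) and Nalm6 for 8 of 9 (74.4%). In the 697 list FADD alone had a peak, where 49.5% of all genes had one. FADD was thus the 1 member with a TSS peak in all 5 lists, which 41.8% of all genes had. The members have a median of 10 annotated TSSs against 5 for all genes, and the rule reaches genes with many TSSs more readily. With only the canonical TSS of each gene, treated JM1 had 9 members (78.1% of all genes), REH 8 (78.8%), Nalm6 7 (70.0%), untreated JM1 6 (53.2%) and 697 1 (45.1%).

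**Figure D1:**
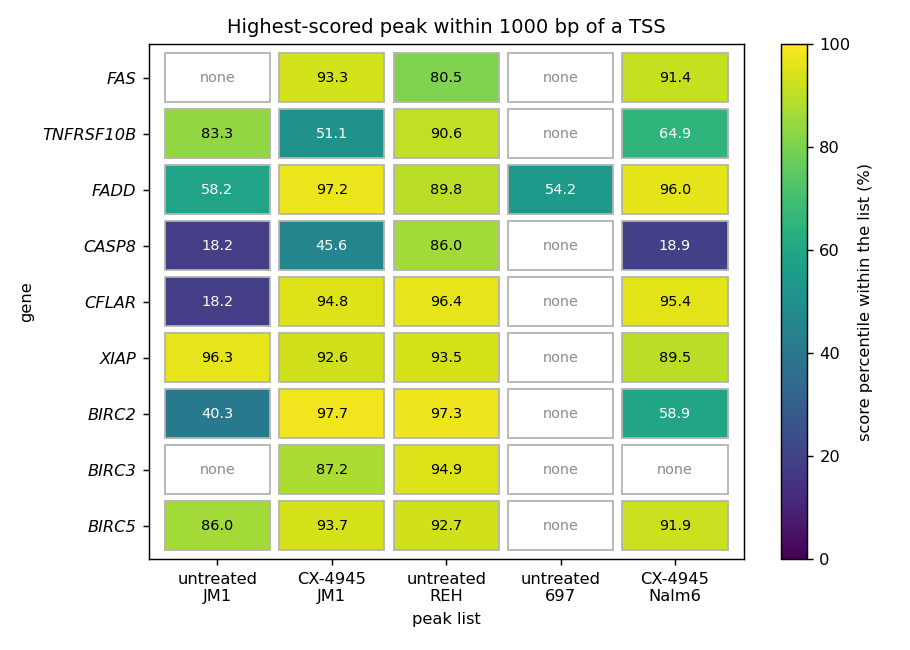
Score percentile, within its own list, of the highest-scored peak within 1000 bp of any TSS of each of the 9 genes (rows) in the 5 peak lists (columns, 1 list per condition); white cells have no such peak. FADD is the only gene with a value in the 697 column, and FAS and BIRC3 are empty in untreated JM1.

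The Fas gene had a TSS peak in 3 lists and none in untreated JM1. In treated JM1 the peak lay at chr10:88990284-88991430, with a score of 43 and a percentile of 93.3. In REH it lay at chr10:88990482-88991426 (score 34, percentile 80.5) and in Nalm6 at chr10:88990217-88991469 (score 45, percentile 91.4). All 3 covered the canonical TSS at 88990798 and shared 945 bp, with centres 45 to 156 bp after the TSS. In untreated JM1 the nearest peak to that TSS lay 109.9 kb away and carried the name STAMBPL1, and in 697 the nearest lay 407.3 kb away. The only other FAS peak was in Nalm6, at chr10:89018900-89019241 (score 12, percentile 8.18), beyond the end of the canonical transcript.

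The DR5 gene, by contrast, had a peak at its start in both JM1 lists. The untreated JM1 peak lay at chr8:23068123-23068965 with a score of 21 (percentile 83.3), and the treated JM1 peak at chr8:23067893-23069416 with a score of 18 (percentile 51.1). Peaks there scored 49 in REH (percentile 90.6) and 25 in Nalm6 (percentile 64.9), and the 4 peaks shared 843 bp. The untreated JM1 peak thus had the higher percentile of the JM1 pair here and at XIAP, and the lower one at the other 5 members with a TSS peak in both lists. In 2 of the 4 lists, untreated JM1 and Nalm6, the authors gave the peak to AC107959.2. The peaks of these 2 lists lay just after the TSS and did not cover it, whereas those of treated JM1 and REH did. A further site lay about 40 kb into the gene, at the starts of short transcripts. Peaks there were in treated JM1 (chr8:23028416-23030193, score 15), REH (chr8:23027539-23030135, score 34) and Nalm6 (chr8:23027181-23027785, score 18). The REH peak overlapped each of the other 2.

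FADD, the adaptor of both receptors, has 1 annotated TSS, at 70203296 on chromosome 11. Its peak in untreated JM1 spanned 444 bp within exon 1 and intron 1 (chr11:70203367-70203810, score 16, percentile 58.2). In 697 the peak was as narrow, with 421 bp (chr11:70203501-70203921, score 24, percentile 54.2). In treated JM1 it spanned 1566 bp (chr11:70202372-70203937, score 63, percentile 97.2) and in Nalm6 1694 bp (chr11:70202195-70203888, score 56, percentile 96.0). The widest was that of REH, with 4512 bp over most of the gene (chr11:70201994-70206505, score 47, percentile 89.8). The narrow peaks of untreated JM1 and 697 began after the TSS, and the 3 wide ones covered it. All 5 peaks shared 310 bp of exon 1 and intron 1, of which the first part is the FADD stretch printed above. Smaller peaks upstream, given to FADD, stood in treated JM1 (score 16) and REH (score 12) at different positions.

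CASP8, the initiator caspase gene, had the lowest percentile when each member was taken by its highest TSS peak, in treated JM1 and Nalm6 and, level with CFLAR at 18.2, in untreated JM1. The place of its peaks varied between lines. Its canonical TSS, at 201260536 on chromosome 2, had a peak in the JM1 lists only. These lay at chr2:201260104-201260742 in untreated JM1 (score 11, percentile 7.90) and at chr2:201260109-201260539 in treated JM1 (score 17, percentile 45.6). In REH the highest CASP8 peak was at an upstream start, chr2:201257590-201258691, with a score of 40 (percentile 86.0). It overlapped an untreated JM1 peak of score 12 at chr2:201258290-201258793, for which the treated JM1 list had no counterpart. In Nalm6 the peak near a TSS was a narrow one of 283 bp at chr2:201266545-201266827, with a score of 14 (percentile 18.9), and its highest CASP8 peak was intronic, at chr2:201239255-201239526 (score 33, percentile 80.4). Of the 13 CASP8 peaks in all, 9 overlapped no peak of another list. The share over all peaks of the lists was not computed, so this count cannot be read as a trait of CASP8.

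At CFLAR, the c-FLIP gene, 2 start regions could be told apart. The first holds the canonical TSS at 201116164 and had a peak in treated JM1 (chr2:201116108-201116939, score 48, percentile 94.8), REH (chr2:201115565-201117178, score 75, percentile 96.4) and Nalm6 (chr2:201116312-201116907, score 54, percentile 95.4). These 3 peaks shared 596 bp, and untreated JM1 had none there. The other lies about 2.5 kb downstream and had a peak in 4 lists. The untreated JM1 peak scored 12 (chr2:201118241-201118932, percentile 18.2) and the treated one 48 (chr2:201118290-201119064, percentile 94.8). The REH peak scored 13 (chr2:201118361-201119025, percentile 8.83) and the Nalm6 peak 20 (chr2:201118751-201119031, percentile 48.1). In treated JM1 the 2 regions had the same score, whereas in REH and Nalm6 the canonical start ranked far above the downstream one. REH had another peak inside the gene (chr2:201139898-201140286, score 48), which the authors gave to the pseudogene IMPDH1P10.

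XIAP, which encodes the direct caspase inhibitor, had a percentile between 89.5 and 96.3 in 4 lists. Its peak scored 30 in untreated JM1 (chrX:123859973-123860518, percentile 96.3), the highest percentile of any member in that list. It scored 41 in treated JM1 (chrX:123859568-123860463, percentile 92.6), 59 in REH (percentile 93.5) and 42 in Nalm6 (percentile 89.5). The 4 peaks shared 491 bp, with centres from 38 bp before to 193 bp after the canonical TSS at 123860053. In 697 the nearest peak lay 100.6 kb away, at STAG2.

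The neighbouring cIAP genes BIRC3 and BIRC2 lie about 30 kb apart on chromosome 11 and differed in their peaks. BIRC2 had a peak centred within 48 bp of its TSS in 4 lists, and the 4 shared 362 bp. In REH it spanned chr11:102346664-102347668 (score 83, percentile 97.3) and with CX-4945 in JM1 chr11:102346779-102347582 (score 68, percentile 97.7). The Nalm6 peak spanned chr11:102346965-102347468 (score 23, percentile 58.9) and the untreated JM1 peak chr11:102347030-102347391 (score 14, percentile 40.3). Among all peaks of their lists, those of treated JM1 and REH thus stood in the top ranks, and those of untreated JM1 and Nalm6 near the middle. For the highest TSS peaks of all protein-coding genes, the lower quartile was 49.8 in untreated JM1 and 69.8 in Nalm6. BIRC2 lay below it in both. For BIRC3 only treated JM1 and REH, which share an antibody, had a peak. The treated JM1 peak was 1264 bp wide, from just before the TSS into intron 1 (chr11:102317459-102318722, score 32, percentile 87.2), and the REH peak was 455 bp wide at the start (chr11:102317425-102317879, score 65, percentile 94.9). The nearest peak to the BIRC3 TSS in untreated JM1 was the BIRC2 promoter peak, 29.5 kb away, and in Nalm6 a peak of score 13 at 8.38 kb.

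BIRC5, the survivin gene, stood at a percentile of 86.0 or more among all peaks of each of the 4 lists with its TSS peak. The REH peak scored 56 (chr17:78213436-78214746, percentile 92.7) and the treated JM1 peak 44 (chr17:78214010-78214703, percentile 93.7). The Nalm6 peak scored 46 (chr17:78214300-78214726, percentile 91.9) and the untreated JM1 peak 22 (chr17:78214227-78214646, percentile 86.0). Over all protein-coding genes with a TSS peak, the quartiles of the highest one were 49.8 and 90.2 for untreated JM1. They were 69.8 and 93.9 for Nalm6, 77.8 and 95.2 for REH, and 76.7 and 95.8 for treated JM1. BIRC5 lay between the quartiles of each list, so its rank was not unusual for a gene's highest TSS peak. The 4 BIRC5 peaks had 347 bp in common, around the end of exon 1. Untreated JM1 had a low further peak 2.0 kb into the gene (score 10, percentile 1.91), absent from the other lists. Treated JM1 (score 16) and REH (score 22) shared an intron 4 peak.

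**Figure D2:**
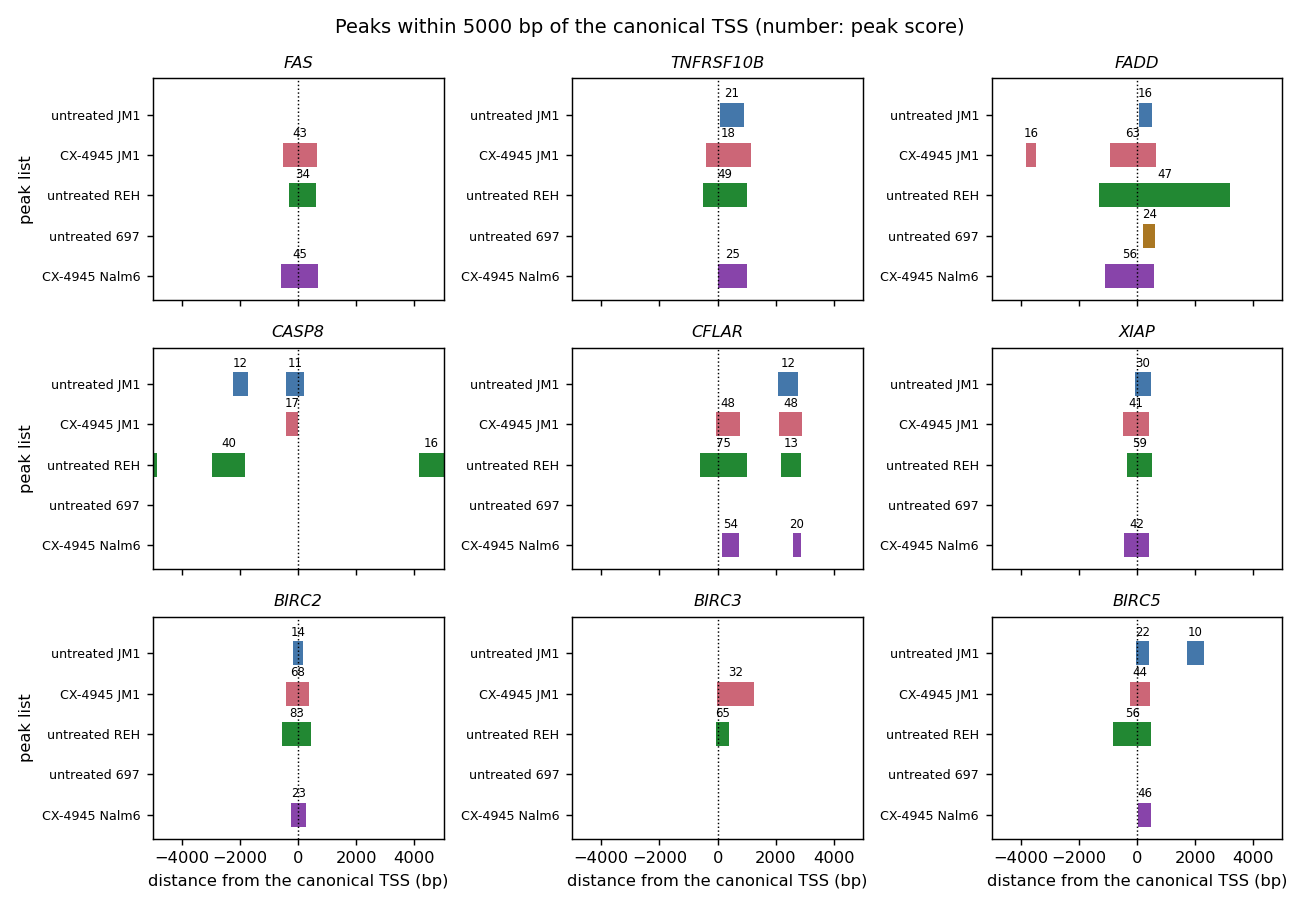
Peaks within 5000 bp of the canonical TSS of each of the 9 genes; the x axis is the distance from the TSS in bp along the gene's strand, each row is 1 peak list, bars are drawn to scale and numbers are the authors' scores. CFLAR shows 2 start regions, of which untreated JM1 has only the downstream one, and CASP8 shows peaks at different positions in JM1 and REH.

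The series was designed in part to see how CX-4945 alters Ikaros binding in JM1. Of the 9 members, 7 had a TSS peak with and without the inhibitor and 2, FAS and BIRC3, only with it, against 23.0% of all protein-coding genes. With both lists whole, none was in the untreated list alone, against 0.564% of all genes. The 2 of 9 therefore stood near the background share. The treated list holds more peaks, and FAS and BIRC3 still had a TSS peak when it was limited to its 36853 peaks with a score of 20 or more, at most as many as in the untreated list. In that limited list 7 of 9 members had a TSS peak, beside 71.8% of all genes. TNFRSF10B and CASP8 had none, and these 2 were then in the untreated list alone. The shares of all genes in either list alone were not computed at this length. With peaks that cover a TSS, the members in treated JM1 alone were 4, with TNFRSF10B and FADD added, beside 28.8% of all genes. By the canonical TSS they were 3, with CFLAR added, beside 25.5%.

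Of the 9 untreated JM1 peaks near a member's TSS, 7 overlapped a treated peak, compared with 96.2% of all untreated peaks near a protein-coding TSS. The 2 without one were the upstream CASP8 peak (score 12) and the downstream BIRC5 peak (score 10). The treated peak was the wider one in 6 of the 7 pairs, with a median width ratio of 1.65, beside 2.37 over all such pairs in the lists. FADD had the largest ratio, 3.53, and at CASP8 the treated peak was narrower, with a ratio of 0.674.

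When each list was limited to at most the 19652 peaks of the shortest list by score, which left 17087 to 19639 peaks, REH kept TSS peaks at all 9 members (61.6% of all genes) and treated JM1 at 7 (60.5%). Nalm6 then had 5 (53.9%), untreated JM1 4 (42.2%) and 697, whose list is whole, 1. Peaks above the median score in untreated JM1 are the same peaks as in its limited list, and 697 had 0 members with a peak that covers a TSS, beside 41.6% of all genes. The nearest 697 peak to the canonical TSS of the other 8 members lay 45.2 kb (BIRC5) to 407.3 kb (FAS) away. The 697 and Nalm6 lists share an antibody but differ in line and treatment, and which of these goes with the low count cannot be told apart.

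Among members with a TSS peak, the median percentile of the highest one was 58.2 in untreated JM1, beside 75.7 over all protein-coding genes with a TSS peak. REH had a median of 92.7 (89.4 over all genes), treated JM1 93.3 (90.2) and Nalm6 90.4 (86.2). By any TSS, members thus ranked below the middle gene in untreated JM1 and slightly above it in REH, Nalm6 and treated JM1. With the canonical TSS alone, the untreated JM1 medians were close, at 70.7 for 6 members and 70.8 for all genes. There CFLAR, without a canonical peak, was no longer counted, and CASP8 stood at 7.90. By the same rule the members' median was 93.3 in treated JM1 (89.6 over all genes), 93.1 in REH (88.9) and 91.4 in Nalm6 (85.2). By any TSS, the members ranged in untreated JM1 from 18.2 (CASP8 and CFLAR) to 96.3 (XIAP), and in REH from 80.5 (FAS) to 97.3 (BIRC2). Near the TSS, the members' peaks were narrower than those of genes at large in each list, with median widths of 1102 against 1843 bp in REH, 869 against 1772 bp in treated JM1, 546 against 1066 bp in untreated JM1 and 600.5 against 1282 bp in Nalm6. The single 697 peak had 421 bp against a median of 758 bp.

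**Figure D3:**
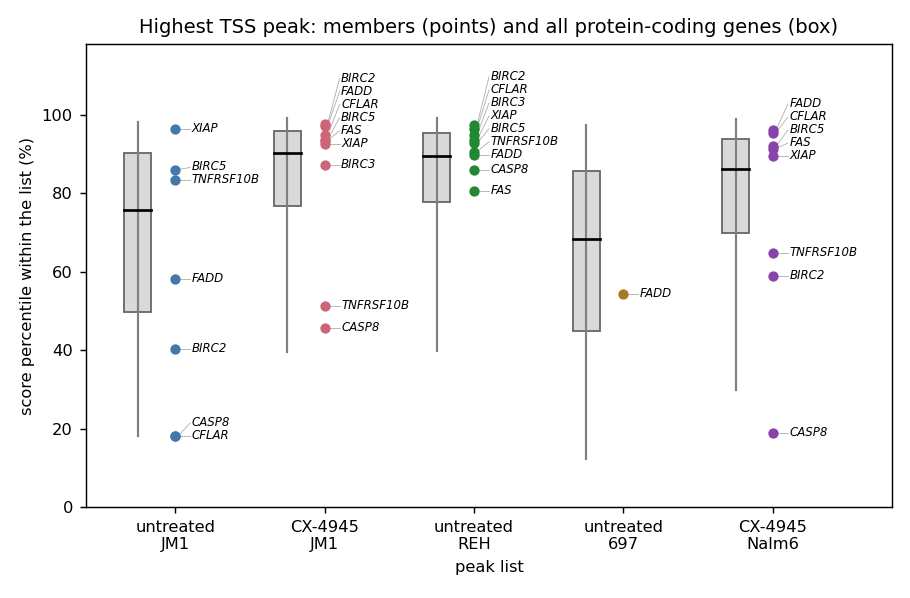
Score percentile (y axis, %) of the highest TSS peak in each of the 5 lists: points are the 9 genes, and the grey box with its black line gives the quartiles and the median, and the thin line the 5th to 95th percentiles, of all protein-coding genes with a TSS peak. The members spread from 18.2 to 96.3 in untreated JM1 and lie between 80.5 and 97.3 in REH.

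By the authors' annotation, 30 of the 68 member peaks were in the promoter class, 21 in introns, 8 in exons, 4 at transcript ends and 5 in intergenic sequence. The authors gave 12 of the 68 to another gene, and 3 of these 12 lay near a member's TSS, 2 at TNFRSF10B and 1 at CFLAR. Of the 22 peaks that were not near a TSS, REH held 11, treated JM1 6, Nalm6 4 and untreated JM1 1. Their whole lists held, in the same order, 83563, 88692, 70894 and 37448 peaks. The class shares over all peaks were not computed, and the rule itself selects peaks in or near the members. These counts therefore cannot be read as a trait of the members.

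The members' start regions were close to those of other genes in base composition, apart from CASP8 and BIRC3. Within 500 bp of the canonical TSS the median GC content was 63.3% in the members and 61.3% over all protein-coding genes. CASP8 had 48.4% and BIRC3 50.2%, and 14.4 and 17.1% of all genes had less. The other 7 lay between 59.1% (CFLAR) and 65.7% (XIAP). CASP8 and BIRC3 were also the members with a peak at the canonical TSS in the fewest lists, 2 each. A part of GC content in this was not tested.

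The letters TGGGAA, searched on both strands as TGGGAA and TTCCCA, stood in 25 of the 46 member peaks near a TSS. In REH 8 of 13 peaks held them (77.0% of all peaks near a protein-coding TSS), in treated JM1 8 of 13 (76.0%), in untreated JM1 3 of 9 (59.0%), in Nalm6 6 of 10 (65.1%) and in 697 0 of 1 (37.7%). In the central 300 bp, in the same order, they were in 1 of 13, 1 of 13, 0 of 9, 1 of 10 and 0 of 1, beside 23.9, 24.1, 21.3, 22.2 and 14.3% of all such windows. The shorter GGGAA, which every TGGGAA contains, stood in 40 of the 46 member peaks. Of all peaks near a protein-coding TSS, 85.2% (697) to 96.8% (treated JM1) held it. The number of matches differed between members of like rank, and the density over all peaks was not computed. The untreated JM1 peak of XIAP held 6 matches in 546 bp and that of TNFRSF10B 9 in 843 bp. The BIRC5 peaks at the canonical TSS held none in Nalm6 and the JM1 lists and 2 in REH, and in each of the 4 lists they stood at a percentile of 86.0 or more.

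The wider pathway was covered in most lists about as often as genes at large, and more often in 697 (65.4% against 49.5%). Its 26 genes have a median of 8.5 annotated TSSs against 5 for all genes, which favours them under this rule. Of 26 other genes of death receptor signalling, caspases, the apoptosome and IAP proteins, REH had a TSS peak at 22 (84.6%), treated JM1 at 21 (80.8%), Nalm6 at 21 (80.8%), untreated JM1 at 17 (65.4%) and 697 at 17 (65.4%), next to the shares of all genes given above. In 697, where FADD was the only member with a peak, the adaptor gene TRAF3 (score 73, percentile 98.3), TRAF2 (score 46, percentile 89.1) and the BH3-only gene BID (score 37, percentile 79.9) ranked highest of the 26. TRAF3 led in Nalm6 as well (score 79, percentile 99.4), followed by the decoy receptor gene TNFRSF10C (score 61, percentile 97.3) and the deubiquitinase gene CYLD (score 58, percentile 96.6).

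In treated JM1 the highest of the 26 were BIRC6, a giant IAP gene (score 138, percentile 99.7), and the kinase gene RIPK1 (score 101, percentile 99.2). BIRC6 also led in REH (score 115, percentile 99.2), where CYLD ranked high as well (score 91, percentile 98.0). In untreated JM1 the TNF receptor gene TNFRSF1A stood highest (score 31, percentile 96.9), and DIABLO, which encodes an IAP antagonist, was among the top 3 (score 28, percentile 95.0). The ligand genes FASLG and TNFSF10, the initiator caspase gene CASP10 and the IAP gene NAIP had no TSS peak in any list. Of the 26, 17 had a TSS peak in JM1 with and without CX-4945, beside 11662 of all 20020 protein-coding genes. Another 4 had one only with CX-4945, beside 23.0% of all genes, and 5 in neither list, beside 3641 of 20020. The 4 were the decoy receptor gene TNFRSF10D, CYLD, CASP6 and BID. Naming by presence in treated JM1 alone was done after the values were seen. Of the 4, only CASP6 falls outside the rules set for naming. TNFRSF10D had a peak in both CX-4945 lists (score 32 in JM1 and 29 in Nalm6) and in REH (score 47), but not in untreated JM1 or 697. The share of all genes with this pattern was not computed.

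**Figure D4:**
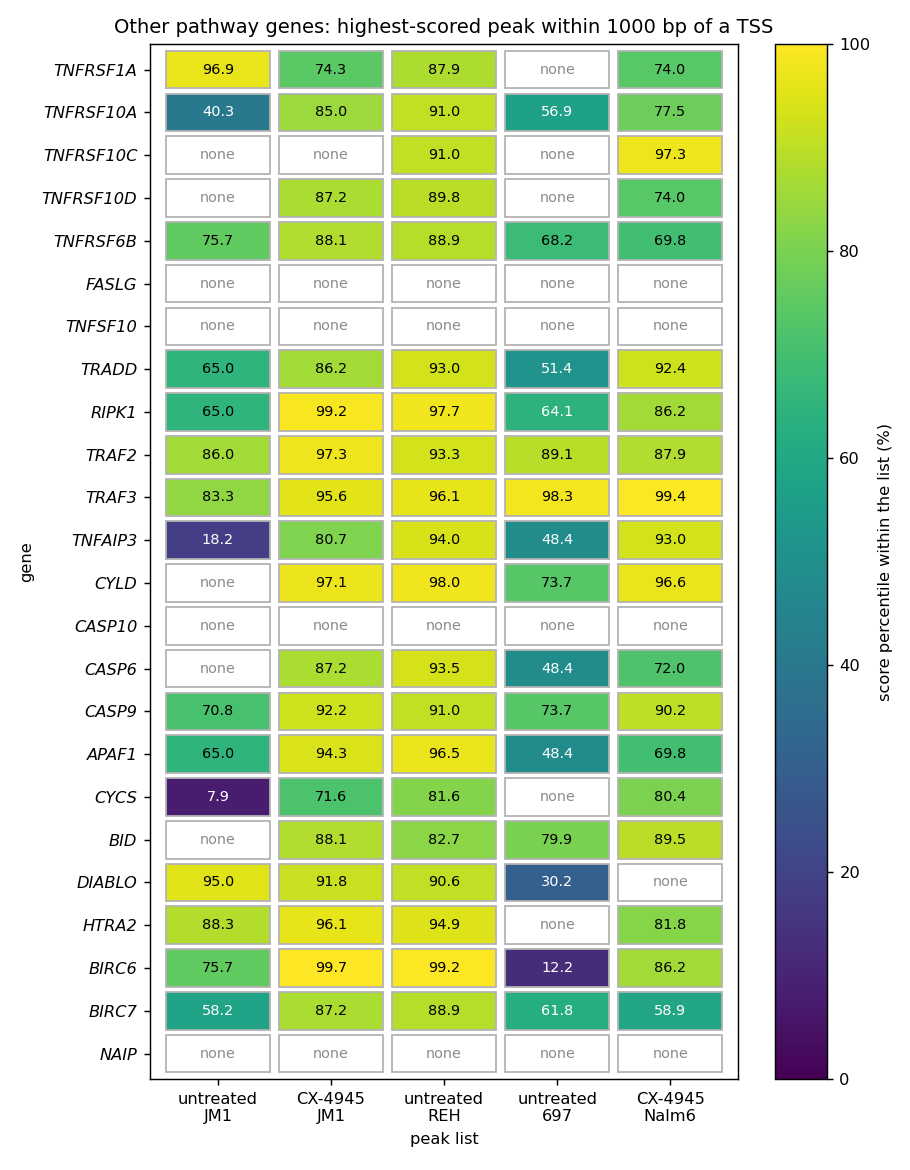
Score percentile, within its own list, of the highest-scored peak within 1000 bp of any TSS of each of 24 of the 26 other pathway genes (rows) in the 5 peak lists (columns); white cells have no such peak. FASLG, TNFSF10, CASP10 and NAIP are empty throughout, and TRAF3 has the highest value in the 697 column (98.3).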

How the data were processed

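The deposited lists give, per the file headers, a position, a score, an annotation class and a gene name for each peak. The authors used Bowtie2 2.3.4.3, MACS2 2.1.1, HOMER 4.10 and GRCh38, per the submitters' processing notes. Not given in the sources used here are how peaks were called, against which control, what the score means and whether 1 or both Nalm6 Ikaros libraries gave the Nalm6 list. Lists were matched to groups by line and treatment. The series has 11 libraries, 6 against Ikaros and 5 inputs, and no input list was analysed here.

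Computed here, with Python 3.11.15 and pandas 2.3.3, were widths, mid-rank score percentiles, overlaps of at least 1 bp and distances to GENCODE release 44 TSSs. Sequences were read from GRCh38, and 0 peaks ran past a chromosome end. The matching was checked on simulated lists. Named were all 9 members and, of the 26 pathway genes, those with a TSS peak in no list, those in both CX-4945 lists but neither untreated JM1 nor 697, and the 3 highest percentiles of each list; some of these values are not reported here. CASP6 was named outside these rules, after its values were seen. Members, lists and rules were chosen with earlier results of these data known.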

Additional observations from a re-analysis of the deposited data

How the results depend on the processing

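No paired analysis was possible because each condition has 1 peak list, and no list could be left out within a condition. The count of members with a TSS peak stayed within 1.5 times its value with a window of 5000 bp, with peak centres, with the canonical TSS alone and with the authors' gene names. With peaks that cover a TSS, it was 0 in 697 and the members in treated JM1 alone were 4. With top-scored peaks up to the length of the shortest list, it was 4 in untreated JM1 and 5 in Nalm6. With peaks above the median score, it was 4 in untreated JM1 and within 1.5 times in the others. Ranked only among peaks near a protein-coding TSS, the members' median percentile was 76.7 in REH, 77.7 in treated JM1, 75.0 in Nalm6, 42.6 in untreated JM1 and 40.4 in 697. As the share of peaks strictly below, it was 54.4 in untreated JM1, 52.8 in 697 and 90.1 in Nalm6. In the central 300 bp, TGGGAA stood in 7.69% of the members' TSS peaks in REH, 7.69% in treated JM1, 0% in untreated JM1 and 10.0% in Nalm6, against 61.5, 61.5, 33.3 and 60.0% in whole peaks. Gene bodies limited to the canonical transcript, and treated-alone members by the canonical TSS (3), were chosen after seeing the data. The counts of member peaks and of pathway genes stayed within 1.5 times under each alternative run. Read depth is unknown here, so an absent peak may lie under a list's threshold.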

Other observations

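Peaks at or beyond the far ends of several members were given by the authors to another gene, as at BIRC5 and CASP8. At the end of BIRC5, peaks given to TMEM235 stood in treated JM1 (chr17:78223169-78227509, 4341 bp, score 18), REH (chr17:78223703-78224611, score 25) and Nalm6 (chr17:78225234-78225630, score 18). The treated JM1 peak overlapped the other 2, and also an untreated JM1 peak that the rule did not take. Long CASP8 transcripts run through FLACC1, and peaks given to FLACC1 stood there in REH (scores 17 and 15) and Nalm6 (score 20), with no overlap between the lists. At the far end of TNFRSF10B, a treated JM1 peak of 4325 bp (score 22) was given to AC107959.1. It overlapped peaks of untreated JM1, REH and Nalm6 that the rule did not take, so the site was not particular to treated JM1.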
